A study of Mus musculus with 20 samples.

Results

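The baseline transcriptome of the mouse hypothalamus was described from the 7 libraries of mice fed a control diet ad libitum, chosen by their labels from the 20 libraries of the series. These libraries came from hypothalamus slices of wild-type C57BL/6 mice, and total RNA was read as paired-end reads on a DNBseq instrument. The other 13 libraries came from mice of the same strain and genotype given a risperidone diet for 4 weeks, with 7 libraries from ad libitum feeding and 6 from pair-feeding. Risperidone is an atypical antipsychotic with weight gain among its side effects, and the title of the series names melanocortin 4 receptors. The labels state that body weights on the risperidone diet did not differ from those on the control diet. The labels give no age or sex and do not say whether each library is a separate mouse, so p-values here measure the spread between the samples alone, and that spread may be technical. No groups were compared: the values show which genes were high or low in the control tissue and which differed most between the 7 libraries.

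The hypothalamus is a set of small nuclei around the floor of the third ventricle that controls feeding, water balance, reproduction, sleep and the pituitary gland. Its neurons signal with neuropeptides, which are made as precursors, cut by prohormone convertases and released from dense-core granules onto receptors that mostly couple to G proteins. Tanycytes and ependymal cells line the ventricle, the meninges cover the ventral surface, and the pituitary stalk is attached below.

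Levels are CPM, the standard depth-scaled read counts, scaled with TMM (trimmed mean of M values) factors, and levels of different genes were compared only as CPM per kb of merged exon. Spread is given as the coefficient of variation (CV) between the 7 libraries that is left after the variance of counting reads is taken off. Total counts lay between 17352462 and 18493768, and TMM factors between 0.989 and 1.02. Ribosomal RNA genes held 3.02% to 4.35% of the counts, and mitochondrial mRNAs 5.89% to 6.91%. A mean of at least 1 CPM was reached by 15856 genes and a mean of at least 100 CPM by 2232, while 17408 of the 55471 genes in the table had no count. The 100 most abundant genes held 22.0% ± 0.320 (SD, n = 7) of the counts. Of 16163 genes tested, 5800 (35.9%) varied beyond counting noise and 348 (2.15%) varied more than genes of like abundance, both at an adjusted p under 0.05. A gene of the second kind is called variable here, and list counts are to be read against these shares. A gene with more reads passes the first test at a smaller CV, so list counts beyond counting noise also follow level. The median CV over the genes tested was 4.32% and their median level 4.79 CPM per kb. Library 7 stood apart by low meningeal markers and by high Prl and Gh, and library 4 by high Ttr and by many genes far from the median. Many results that rest on either are therefore given with and without it. Every pair of libraries differed by more than counting noise (chi-square per degree of freedom between 2.35 and 9.94), so the 7 were kept as separate samples. This value was largest between libraries 4 and 6 (9.94) and libraries 1 and 4 (9.84), and was 2.83 between libraries 1 and 6. Pairs with library 7 reached at most 7.72.

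The highest protein-coding genes per kb encoded mitochondrial respiratory chain subunits, led by mt-Co1, a subunit of cytochrome c oxidase, at 13488 ± 416 CPM per kb. mt-Nd1, mt-Cytb, mt-Nd4, mt-Nd2, mt-Nd5 and mt-Nd6 followed, from 10728 down to 2114 CPM per kb. The highest nuclear genes were Eef1a1, a translation elongation factor, at 1067 ± 39.9 CPM per kb, and Apoe, the lipid carrier of astrocytes, at 945 ± 54.2 CPM per kb. Ptgds, the prostaglandin D2 synthase of meninges and oligodendrocytes, reached 887 ± 336 CPM per kb with by far the widest spread of these 20 genes. Ubb, Sparcl1, Nap1l5, Cst3, Hspa8, Hsp90ab1 and Rps15 lay between 786 and 557 CPM per kb. The remaining 3 of the 20 highest genes belong to peptide secretion: Hcrt, Pmch and Resp18, a granule protein of neuroendocrine cells, at 589.8 ± 31.9 CPM per kb. With the longest transcript as the length in place of merged exons, 17 of these 20 genes were still among the top 20, and Nap1l5, Pmch and Rps15 were not. Eef1a1, Ubb, Rps15 and the mitochondrial genes have near-identical copies elsewhere in the genome, and mt-Nd5 overlaps mt-Nd6 on the other strand, so their counts are uncertain.

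The labelled tissue was checked against markers of the hypothalamus and its neighbours. Transcription factors that define the region were present: 41 of 42 listed had a mean of at least 1 CPM, with a list median of 2.61 CPM per kb. Arnt2, needed for paraventricular neurons, was the highest at 42.2 ± 1.93 CPM per kb, followed by Otp of neuroendocrine neurons at 15.6 ± 1.71, Fezf1 of the ventromedial nucleus at 13.6 ± 1.17 and Nkx2-1 of the ventral forebrain at 10.9 ± 0.940. All 12 ventromedial and all 9 paraventricular and supraoptic markers reached 1 CPM, with list medians of 14.9 and 15.6 CPM per kb. Markers of other regions had medians of 1.13 CPM per kb for cortex, hippocampus and amygdala, 2.93 for thalamus and 3.35 for striatum. These lie under the ventromedial and paraventricular lists, but thalamus and striatum lie above the hypothalamic transcription factors and above the mammillary and posterior markers (1.90). Some of these neighbours' markers, such as Camk2a at 77.5 CPM per kb, are shared by neurons of many regions. Suprachiasmatic markers had a median of 1.90 CPM per kb, and Vip, the peptide that defines the ventral part of that nucleus, lay at 0.964 to 1.61 CPM (median 1.22).

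**Figure D1:**
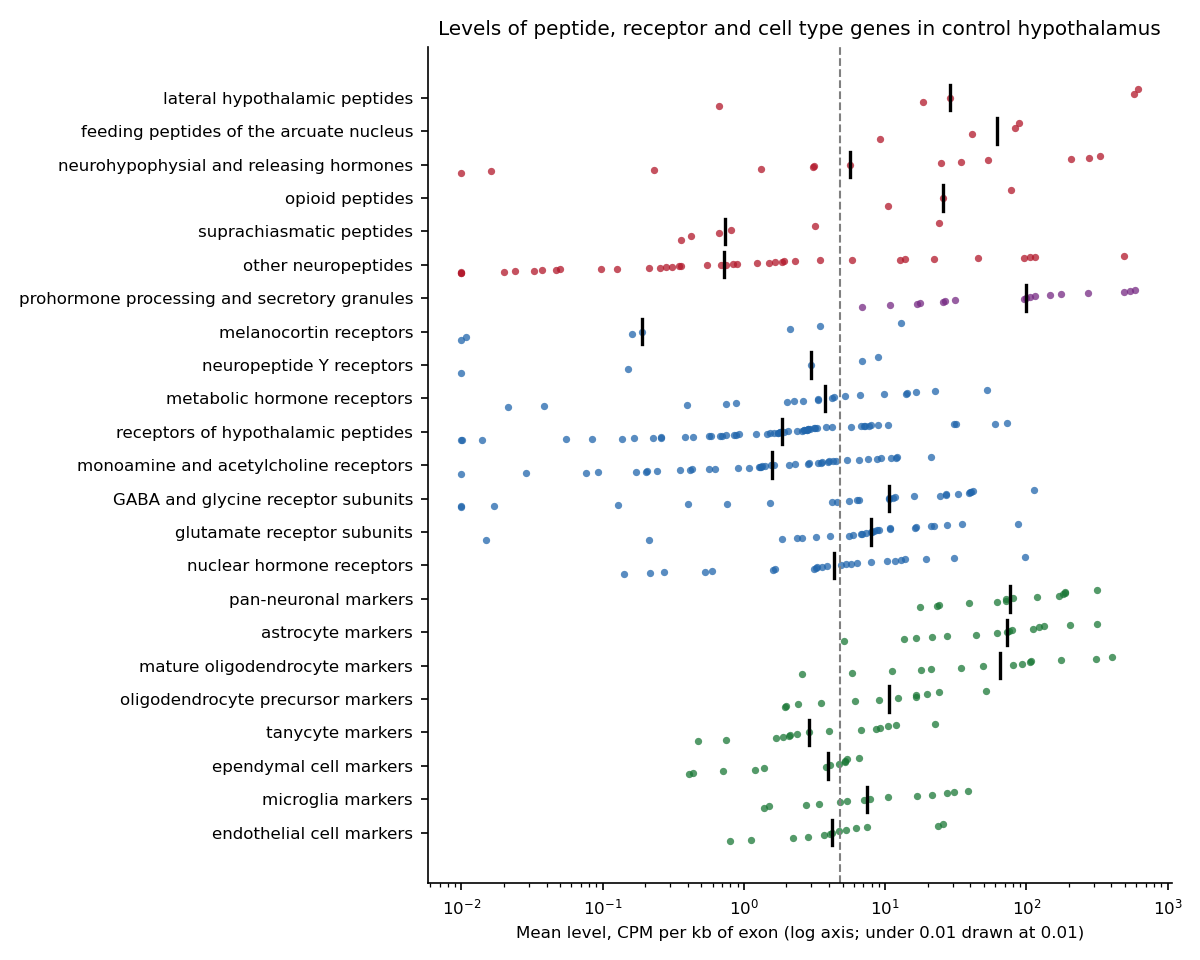
Mean level over the 7 control libraries of each gene in 23 peptide, receptor and cell type lists, in CPM per kb of exon on a log axis; each point is a gene, the black bar is the list median, and the dashed line is the median of the genes tested (4.79). Prohormone processing, neuronal, astrocyte and oligodendrocyte lists lie to the right, with medians between 64.7 and 99.2, and the melanocortin receptors lie farthest to the left, with a median of 0.188.

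Hcrt and Pmch of the lateral hypothalamus were the most abundant peptide precursors among those listed, per kb. Hcrt encodes the orexins, which sustain wakefulness, and lay at 377 to 535 CPM (median 454), or 618 ± 72.2 CPM per kb. Pmch encodes melanin-concentrating hormone, which promotes feeding and sleep, and lay at 377 to 472 CPM (median 436), or 574 ± 47.1 CPM per kb. Both were lowest in library 1 and high in libraries 3 and 7, and their log2 levels ran together over the 7 libraries (Pearson r = 0.885, exact permutation p adjusted over 12 pairs = 0.0127; Spearman rho = 0.964; r = 0.738 without the 2 libraries farthest from the median). Hcrt was variable with a CV of 11.6% (adjusted p = 0.0139), and this call was lost without library 1 (adjusted p 0.673), 3 (0.169) or 7 (0.0573). Pmch had a CV of 8.14% and was not called (adjusted p = 0.714). Pmch overlaps Parpbp on the other strand, so part of its count is uncertain. Npvf, a peptide of the dorsomedial nucleus that acts on reproduction, lay at 10.5 to 18.99 CPM (median 15.6) and was low in libraries 1 and 3. Its CV was 21% (adjusted p = 0.00101), a call lost without library 1 (adjusted p 0.0646) or 3 (0.0775). Nts, neurotensin, lay at 30.3 to 40.4 CPM (median 35.9) with no call. Of the 5 listed peptides 2 were variable, but 0 were so without library 1 or library 3.

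The promoters of the 2 highest peptide genes are shown because both mRNAs reached the level of housekeeping genes although few neurons make them. Each line gives the 250 bases before the RefSeq start site on the GRCm38.p6 build, 5′ to 3′ along the gene's strand, with the TATA box letters TATAAA in capitals. The Pmch window is chr10:88090822-88091071 on the plus strand and the Hcrt window chr11:100762932-100763181 on the minus strand.
Pmch: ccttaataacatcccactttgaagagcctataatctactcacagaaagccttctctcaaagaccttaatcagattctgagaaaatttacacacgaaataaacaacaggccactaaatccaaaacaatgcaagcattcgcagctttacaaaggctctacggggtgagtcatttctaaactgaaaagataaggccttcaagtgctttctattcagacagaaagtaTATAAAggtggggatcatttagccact
Hcrt: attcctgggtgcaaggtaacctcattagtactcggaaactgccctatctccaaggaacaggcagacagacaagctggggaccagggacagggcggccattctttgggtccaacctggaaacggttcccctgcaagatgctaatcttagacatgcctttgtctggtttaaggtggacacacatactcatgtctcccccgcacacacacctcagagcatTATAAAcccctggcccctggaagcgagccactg
The motif begins at -27 in Pmch and at -33 in Hcrt, counted back from the start site. It was searched on both strands, and 12.4% of 32841 promoter windows of this length hold it. A match describes the letters only.

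Peptides of the neurohypophysis and the releasing hormones spanned a wide range. Sst, somatostatin, which restrains growth hormone, was highest at 332 ± 34.9 CPM per kb. Avp, vasopressin, which retains water, lay at 181, 114, 211, 58.6, 249.8, 142 and 167 CPM in libraries 1 to 7. Oxt, oxytocin, which drives milk let-down and social behaviour, lay at 120.3, 74.5, 162, 47.9, 164, 101.4 and 106 CPM in the same order. Both were lowest in library 4, low in library 2 and highest in libraries 3 and 5. Their CVs were 39.2% and 38.5% (adjusted p = 4.46e-71 and 4.59e-60), and the levels ran together over the libraries (r = 0.983, exact permutation p adjusted over 12 pairs = 0.00119; rho = 1; r = 0.971 without the 2 farthest libraries). Trh, thyrotropin-releasing hormone, lay at 58.7 to 89.7 CPM (median 71.8) low in libraries 2 and 4 and high in libraries 3 and 5, with a CV of 16.9% (adjusted p = 6.66e-07). Ucn3, a urocortin of perifornical neurons, lay at 0.696 to 3.60 CPM (median 1.39), was lowest in library 4 and highest in library 5, and had a CV of 51.6% (adjusted p = 9.26e-06). These 4 genes were the variable members among 13 listed and 10 tested, and 9 of the 10 varied beyond counting noise. Ghrh, growth hormone-releasing hormone, and Tac2, neurokinin B of arcuate reproductive neurons, lay at 24.7 and 34.5 CPM per kb. Crh, the stress-axis releasing hormone, at 3.15 and Gnrh1, the reproductive releasing hormone, at 3.08 CPM per kb were low. Kiss1, the kisspeptin gene, had no count, but it overlaps another gene on its strand and reads there may not have been assigned.

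Avp and Oxt are neighbours on chromosome 2, with 3565 bases between their ends, and are read towards each other. Their promoters are shown because the 2 genes varied together more than any other pair examined. The Avp window is chr2:130582589-130582838 on the minus strand, with the E-box letters CACGTG in capitals. The Oxt window is chr2:130575919-130576168 on the plus strand, with each match to the nuclear receptor motif TGACC, or to GGTCA on the other strand, in capitals.
Avp: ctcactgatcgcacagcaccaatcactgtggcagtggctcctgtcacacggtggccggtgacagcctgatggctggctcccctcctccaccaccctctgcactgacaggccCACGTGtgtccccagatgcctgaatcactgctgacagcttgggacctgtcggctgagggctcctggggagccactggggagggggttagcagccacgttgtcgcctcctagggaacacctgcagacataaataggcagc
Oxt: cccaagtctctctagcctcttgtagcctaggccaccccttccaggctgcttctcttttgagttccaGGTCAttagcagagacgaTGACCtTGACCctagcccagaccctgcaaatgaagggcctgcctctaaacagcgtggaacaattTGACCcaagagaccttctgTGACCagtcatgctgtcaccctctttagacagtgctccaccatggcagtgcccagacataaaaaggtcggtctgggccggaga
CACGTG begins at -139 in Avp and was not found in the Oxt window; 6.02% of the 32841 windows hold it. The Oxt window holds 5 matches to TGACC on either strand and the Avp window 0. At least 1 match is held by 35.2% of the windows and 5 or more by 14 windows (0.0426%). Matches to different motifs did not overlap in these 2 windows.

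Feeding peptides of the arcuate nucleus were moderately abundant, and 3 of 4 were variable. Cartpt, which encodes the anorectic peptide CART, lay at 91.2 to 131 CPM (median 107) and was highest in library 4. Npy, neuropeptide Y, which drives feeding, lay at 41.5 to 57.8 CPM (median 53.2) and was low in libraries 1, 4 and 5. Pomc, the precursor of the satiety peptide alpha-MSH, lay at 44.3 to 64.1 CPM (median 51.5) and was lowest in library 6 and highest in library 7. Their CVs were 13.2%, 13.7% and 13.2% (adjusted p = 0.00179, 0.00261 and 0.00625). The call of Cartpt was lost without library 4 (adjusted p 0.286) and that of Pomc without library 6 (adjusted p 0.0928) or 7 (0.0742). Pomc is also made in the pituitary, and library 7 was the library with high Prl and Gh; their part in the level of Pomc was not tested. Agrp, which blocks melanocortin receptors and is made in the same neurons as Npy, lay at 6.81 to 11.2 CPM (median 9.41) with a CV of 15.1% and no call (adjusted p = 0.708). Per kb, Agrp (9.17 ± 1.56) was the lowest of the 4 and Npy (89.1 ± 12.5) and Cartpt (83.01 ± 11.1) the highest, with Pomc at 40.9 ± 5.56. Agrp and Npy correlated with r = 0.773, but the exact permutation p adjusted over the 12 pairs was 0.0765.

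Other peptides were steadier. Opioid precursors Penk, Pdyn and Pnoc lay at 78.2 ± 4.79, 25.8 ± 1.87 and 10.4 ± 0.774 CPM per kb, and 0 of 3 were variable. Adcyap1, which encodes PACAP and marks ventromedial neurons, lay at 24.1 ± 1.75 CPM per kb, and Gal, galanin, at 45.1. Granins, the acidic proteins that fill dense-core granules, were higher than these opioids: Scg2 at 494 ± 34.1 CPM per kb, Chga at 115 ± 7.43, Chgb at 106 ± 3.92 and Vgf at 95.5 ± 7.46. Among 38 further neuropeptide genes 17 reached 1 CPM, and the list median was 0.718 CPM per kb. Cck, cholecystokinin, was the only variable member among the 18 tested, at 13.96 to 24.4 CPM (median 15.97) with library 4 far above the rest, and without that library its CV dropped from 20.1% to 0.945% (adjusted p = 0.0119 and 1.0). Nps, Pyy and Ppy, a brainstem peptide and 2 gut peptides, had no count.

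**Figure D2:**
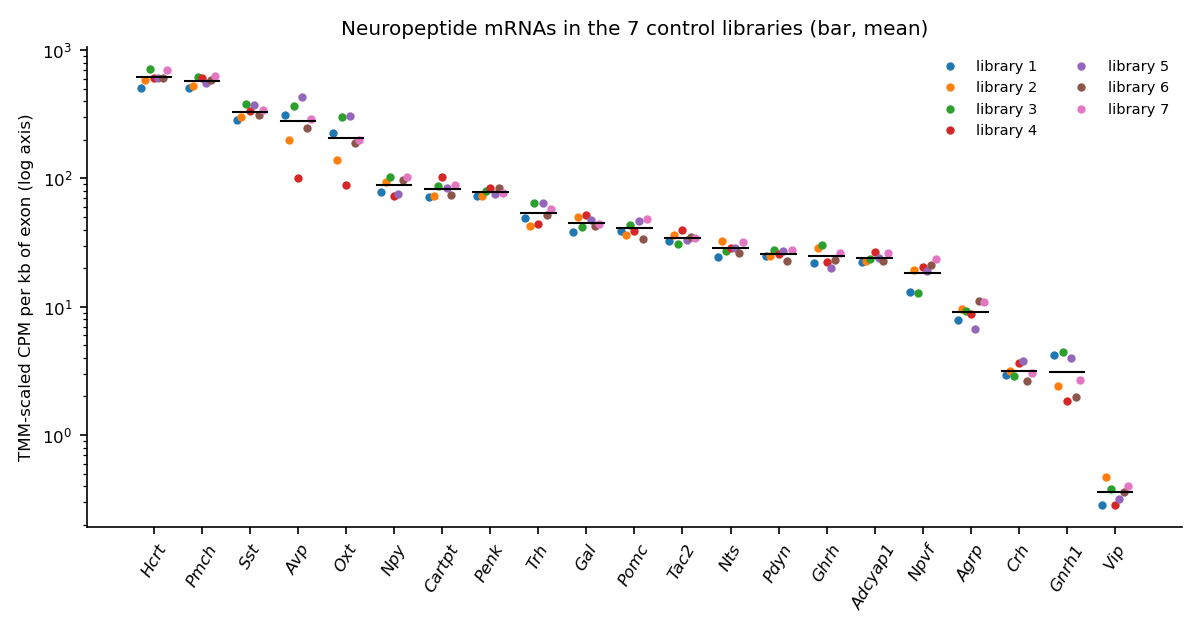
Levels of 21 neuropeptide mRNAs in each control library, in TMM-scaled CPM per kb of exon on a log axis; points are libraries and bars are means. Hcrt and Pmch lie near 600, Vip under 1, and the points of Avp and Oxt are spread most, with library 4 lowest.

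The machinery that matures peptides was high and even between libraries. All 17 listed genes of prohormone processing and secretory granules reached 1 CPM, the list median was 99.2 CPM per kb, and the summed level differed by 1.07-fold between the lowest and the highest library. All 17 varied beyond counting noise, and 0 were variable. Cpe, carboxypeptidase E, which trims cut precursors, lay at 1387 to 1464 CPM (median 1415). Pcsk1n, which encodes proSAAS, an inhibitor of prohormone convertase 1, lay at 533 to 675 CPM (median 594). The convertases Pcsk1 and Pcsk2 themselves lay at 16.9 and 31.1 CPM per kb, below Cpe at 543 and Pcsk1n at 275.

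Melanocortin and neuropeptide Y receptor mRNAs were lower per kb than those of Pomc and Npy, whose products they bind. Of the melanocortin system, the targets of Pomc products and Agrp, Mc3r lay at 7.78 to 10.02 CPM (median 9.49) and Mc4r, the receptor named in the title, at 5.09 to 7.55 CPM (median 5.46). Mrap2, an accessory protein of Mc4r, was higher at 26.9 to 31.1 CPM (median 29.3). Per kb these were 3.47 ± 0.349, 2.13 ± 0.336 and 12.8 ± 0.617, and Mc5r lay at 0.188. Mc4r had a CV of 12.5% and varied beyond counting noise (adjusted p = 0.0461 at dispersion 0), the 1 of 3 tested in this list to do so, but not more than genes of like abundance (adjusted p = 1.0). Npy receptors were led by Npy2r and Npy1r, the autoreceptor and the main feeding receptor, at 8.84 ± 0.563 and 6.90 ± 0.572 CPM per kb, with Npy5r at 2.96 ± 0.311 and Npy4r at 0.152. None of the 3 tested was variable, and 1 varied beyond counting noise.

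Receptors of metabolic hormones, listed with some of neurotrophic factors, had a median of 3.78 CPM per kb, against 4.79 over the genes tested. They did not stand out in spread. Of 20 listed genes 18 reached 1 CPM, 7 of 18 tested varied beyond counting noise and 0 were variable. Ntrk2, the BDNF receptor, was the highest at 52.7 ± 3.23 CPM per kb, followed by Cntfr, Adipor2 and Ramp1, the receptor of ciliary neurotrophic factor, an adiponectin receptor and a calcitonin receptor partner, at 22.4, 16.4 and 14.2. Lepr, the leptin receptor, lay at 5.38 to 7.65 CPM (median 6.12) or 0.879 CPM per kb, Ghsr, the ghrelin receptor, at 2.004, Glp1r at 3.33 and Insr, the insulin receptor, at 4.21. Receptors of hypothalamic peptides had a list median of 1.86 CPM per kb over 56 genes, and 46 reached 1 CPM. The highest were Ntsr2, a neurotensin receptor of astrocytes, Adcyap1r1, the PACAP receptor, Oprl1, the nociceptin receptor, and Sort1, sortilin, between 73.2 and 30.6 CPM per kb. Rxfp1, a relaxin receptor, was the 1 variable gene of the 46 tested, at 4.05 to 11.1 CPM (median 6.98) with library 3 low and library 1 high. Its CV was 29.4% (adjusted p = 2.45e-04), and the call was lost without library 3 (adjusted p 0.184).

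Monoamine and acetylcholine receptors had a list median of 1.58 CPM per kb, and 11 of 34 tested varied beyond counting noise, close to the share among the genes tested. Hrh3, the histamine autoreceptor, led at 21.2 ± 1.54 CPM per kb, followed by Chrnb2, a nicotinic subunit, at 12.04 ± 0.605, Adra2a, an inhibitory noradrenaline receptor, at 11.9 ± 0.228 and Drd2, the dopamine D2 receptor that risperidone blocks, at 10.9 ± 0.777. Htr2a and Htr2c, serotonin receptors also bound by risperidone, lay at 4.24 and 9.28 CPM per kb. Chrm1, a muscarinic receptor, was the 1 variable member, at 14.6 to 22.5 CPM (median 17.4) with libraries 3, 4 and 6 high (CV 17.3%, adjusted p = 0.0200), and its call was lost without library 1 (adjusted p 0.165), 4 (0.0734), 5 (0.105) or 6 (0.0905).

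Receptors of fast transmitters were higher than those of peptides and monoamines. GABA and glycine receptor subunits had a list median of 10.7 CPM per kb, and 18 of 22 tested varied beyond counting noise. Gabbr1, a subunit of the GABA-B receptor, led at 113 ± 2.67 CPM per kb, ahead of Gabbr2 and Glrb at 41.9 and 39.9. Gabrb2, a beta subunit of the GABA-A channel, lay at 27.05 to 50.6 CPM (median 41.2), was low in libraries 3 and 4, and was variable with a CV of 22.02% (adjusted p = 3.17e-11). Glra1, a glycine receptor subunit, lay at 11.2 to 18.9 CPM (median 16.9) with library 4 lowest (CV 17.6%, adjusted p = 0.0258), a call lost without library 1 (adjusted p 0.0820), 2 (0.0639), 4 (0.647) or 6 (0.0764). Glutamate receptor subunits had a list median of 7.95 CPM per kb, led by the AMPA subunit Gria1 at 87.4 ± 3.03, with Grik5, Grin1 and Gria2 at 34.8, 27.3 and 22.03. Grin2b, an NMDA subunit, lay at 143 to 206 CPM (median 155) with libraries 1 and 6 high, and its CV of 14.4% was called (adjusted p = 1.14e-04). Grm2, a presynaptic glutamate receptor, lay at 12.8 to 21.4 CPM (median 14.6) with library 4 high (CV 18.2%, adjusted p = 0.0463), a call lost without library 2 (adjusted p 0.105), 3 (0.0567), 4 (1.0) or 5 (0.176).

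Genes of GABA neurons and of subcortical glutamate neurons led the transmitter genes. Gad2 and Gad1, which make GABA, lay at 77.8 ± 8.27 and 44.6 ± 2.34 CPM per kb, and Slc17a6, the glutamate transporter of subcortical neurons, lay at 45.8 ± 2.94. Slc17a7, the transporter of cortical neurons, was far lower at 1.44 CPM per kb and ranged over 2.86 to 15.2 CPM (median 6.52), with libraries 4 and 6 high and library 7 low. Its CV of 53.5% was called (adjusted p = 2.71e-18). Hdc, which makes histamine in the tuberomammillary nucleus, lay at 48.5 to 89.8 CPM (median 66.9), highest in library 4 and lowest in library 5 (CV 20.5%, adjusted p = 4.92e-11). Gad2 lay at 372 to 501 CPM (median 480.3) and was lowest in library 4, but its call (CV 10.6%, adjusted p = 0.0461) was lost without any 1 library (adjusted p 0.0552 to 1.0). Th and Ddc, enzymes of dopamine synthesis, lay at 22.6 and 10.9 CPM per kb. Markers of noradrenaline and serotonin cell bodies, which lie in the brainstem, were nearly absent: Dbh at 0.0501, Slc6a2 at 0.0102 and Tph2 at 0.117 CPM per kb.

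Nuclear receptors had a list median of 4.37 CPM per kb, led by Thra, a thyroid hormone receptor, at 97.2 ± 3.52, and by the clock repressors Nr1d1 and Nr1d2 at 30.8 ± 1.23 and 19.6 ± 0.861. Pgr, the progesterone receptor, lay at 21.3 to 33.9 CPM (median 28.8), low in libraries 3 and 6 and highest in library 2. It was the 1 variable gene of 23 tested (CV 16.3%, adjusted p = 0.00137), and the call was lost without library 2 (adjusted p 0.0519), 3 (0.105) or 6 (0.0537). Esr1, the estrogen receptor, had a CV of 13.3% and was not called (adjusted p = 0.222). Cga and Greb1, described with the pituitary stalk, shared with Pgr the low libraries 3 and 6 and the highest library 2. Xist, the RNA of the inactive X chromosome, lay at 355 to 403 CPM (median 382), and the Y-linked genes Ddx3y, Uty and Eif2s3y had no count in any of the 7 libraries, while Kdm5d had counts in library 3 alone, at 0.0541 CPM. The labels used here give no sex, and Xist overlaps Tsix on the other strand.

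Clock genes were even: 19 of 19 reached 1 CPM and 0 were variable, although 13 varied beyond counting noise. Tef, a clock output factor, and Csnk1d, the kinase that sets the speed of the clock, lay at 37.9 ± 1.73 and 28.02 ± 1.602 CPM per kb. Per1 and Dbp, a core repressor and an output factor of the clock, lay at 89.5 to 106 CPM (median 99.7) and 26.5 to 37.3 CPM (median 30.4). The summed level of the clock list differed by 1.05-fold between libraries, against 1.34-fold for immediate early genes. Of the latter, 19 of 22 varied beyond counting noise and 4 were variable. Fos, Junb and Egr1, transcription factors induced by neuronal activity, lay at 18 to 29.5 CPM (median 21.1), 16.6 to 27.05 CPM (median 20.3) and 56.01 to 81.6 CPM (median 63.5). All 3 were highest in library 4, with CVs of 16.3%, 16.6% and 11.9% (adjusted p = 0.0380, 0.0332 and 0.0349). Without library 4 the CVs were 5.97%, 9.68% and 5.62%. The call was lost for Fos without library 1 (adjusted p 0.0521), 3 (0.166) or 4 (1.0), for Junb without library 1 (adjusted p 0.137), 3 (0.123) or 4 (1.0) and for Egr1 without library 2 (adjusted p 0.0596), 3 (0.246) or 4 (1.0). The list held 1 variable gene without library 3 or library 4 and 2 without library 1. Fos and Egr1 correlated with r = 0.926 (exact permutation p adjusted over 12 pairs = 0.0314), but r was 0.198 without the 2 libraries farthest from the median.

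Targets of glucocorticoids, the stress hormones, had a list median of 12.8 CPM per kb, led by Mt1, a metallothionein, at 288 ± 29.5, with Tsc22d3, Sgk1 and Klf9 at 35.02, 34.1 and 30.1. Variable members numbered 4 of 19 tested. Plin4, a lipid droplet protein, lay at 36.2 to 57.4 CPM (median 49.4) with library 4 lowest, and Zbtb16, a transcription factor, at 57.3 to 81.2 CPM (median 62.99) with libraries 1 and 6 highest. Fkbp5, the co-chaperone that feeds back on the glucocorticoid receptor, lay at 52.1 to 72.5 CPM (median 61.4), and Sult1a1, a sulfotransferase, at 14.7 to 23.8 CPM (median 19.5); both were lowest in library 7. Adjusted p were 1.44e-04 for Plin4, 4.21e-04 for Zbtb16, 0.0458 for Fkbp5 and 0.0103 for Sult1a1. The call was lost for Plin4 without library 4 (adjusted p 0.229), for Fkbp5 without library 1 (adjusted p 0.593), 2 (0.0515), 5 (0.271) or 7 (0.211) and for Sult1a1 without library 5 (adjusted p 0.0698) or 7 (0.147). The list held 2 variable genes without library 5 or library 7. Interferon-response genes were low, with a list median of 2.001 CPM per kb, and 4 of 21 tested were variable. Ifitm3, an antiviral membrane protein, lay at 10.9 to 25.98 CPM (median 15.9) and Gbp2, a guanylate-binding protein, at 2.97 to 8.89 CPM (median 5.23), both highest in library 4. Ifit1 and Ifit3, which bind viral RNA, lay at 2.86 to 9.52 CPM (median 6.15) and 13.4 to 24.7 CPM (median 18.9), highest in library 6 and lowest in library 7. The calls (adjusted p = 6.95e-07, 2.44e-04, 1.00e-04 and 0.00954) were lost for Ifitm3 without library 4 (adjusted p 0.180), for Gbp2 without library 4 (adjusted p 0.128), for Ifit1 without library 7 (adjusted p 0.372) and for Ifit3 without library 6 (adjusted p 0.415) or 7 (0.236).

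Imprinted genes are read from the maternal or the paternal allele alone. Of 33 listed, 28 reached 1 CPM and the list median was 16.2 CPM per kb. Nap1l5, a nucleosome assembly protein, led at 652 ± 18.7 CPM per kb, followed by Nnat, neuronatin, at 409 ± 31.3, Meg3, a noncoding RNA, at 374 ± 26.2 and Ndn, necdin, at 142 ± 3.77. None of 28 tested was variable, although 27 varied beyond counting noise. Snurf had no count; it shares its exons with Snrpn, so its reads may not have been assigned. Nap1l5 lies within Herc3 on the other strand.

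Mitochondrial mRNAs split into 2 tiers. mt-Co1 stood at 13488 ± 416 CPM per kb, while mt-Co2, mt-Co3 and mt-Atp8 stood at 217 ± 28.2, 118 ± 15.8 and 52.2 ± 23.2 although they belong to the same polycistronic transcripts. The same 3 were the variable members of the 13: mt-Co2 lay at 121 to 169 CPM (median 149), mt-Co3 at 73.2 to 107 CPM (median 92.6) and mt-Atp8 at 5.75 to 17.8 CPM (median 8.33), with libraries 2 and 4 high and library 6 lowest. Their CVs were 12.9%, 13.2% and 43.7% (adjusted p = 0.00128, 9.50e-04 and 2.69e-15), and without library 6 the calls of mt-Co2 and mt-Co3 were lost (adjusted p = 0.0609 and 0.151), leaving 1 of the 13. These genes have near-identical copies in the nuclear genome, and reads that match both places may not be counted, so their levels are uncertain.

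Cell type markers placed neurons, astrocytes and oligodendrocytes at the top. List medians were 76 CPM per kb for pan-neuronal markers, 73.2 for astrocytes and 64.7 for mature oligodendrocytes. Oligodendrocyte precursors had a median of 10.6, microglia of 7.44, endothelial cells of 4.21, ependymal cells of 3.94 and tanycytes of 2.89 CPM per kb. In bulk tissue fewer cells of a type and less RNA per cell cannot be told apart. Neuronal markers were led by Uchl1, a ubiquitin hydrolase, and Tubb3, neuronal tubulin, at 317 ± 17.9 and 188 ± 8.84 CPM per kb, and 0 of 14 were variable. Astrocyte markers were led by Aldoc, a glycolytic enzyme, at 315 ± 22.9 and Agt, angiotensinogen, at 205 ± 15.7 CPM per kb. Gfap, the astrocyte filament, was the 1 variable astrocyte marker of 15, at 191 to 309 CPM (median 264) with library 7 lowest (CV 15.1%, adjusted p = 1.83e-06), and without library 7 it was not called (adjusted p = 0.176). Aqp4, the astrocyte water channel, lay at 164 to 183 CPM (median 169) with a CV of 3.48%. Ependymal markers, among them Foxj1, the regulator of motile cilia, at 15.1 to 18.7 CPM (median 16.8), were low, and 0 of 12 varied beyond counting noise. Their sum ran from 86.1 to 104.8 CPM with an ordinary CV of 6.46%, against 2.98% for neuronal and 2.72% for astrocyte sums.

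Mature oligodendrocyte markers differed between libraries as a block. Their summed level ran from 6931 CPM in library 4 to 9689.6 CPM in library 5, and library 6 was the second highest. Mbp, a main myelin protein, lay at 2971 to 4227 CPM (median 3372), highest in library 5 and lowest in library 4. Of 14 listed genes 13 varied beyond counting noise and 7 were variable. Aspa, which encodes an acetate-releasing enzyme, had a CV of 18.56%. Other variable members were Mbp (13.5%), Mobp (12.4%), Cldn11 (12.8%), Ermn (13.7%) and Trf (12.2%), which encode myelin proteins, a tight junction protein and transferrin. Without library 5 none of the 14 was variable, and the CV of Aspa was 9.52%, that of Cldn11 8.65% and that of Ermn 8.33%. Calls were also lost for Trf without library 7 (adjusted p 0.0846) and for Aspa without library 1 (0.0737) or 7 (0.0772). Precursor markers were also highest in library 5 in their sum, at 738 CPM. Of the 12, 9 varied beyond counting noise and 0 were variable, and their sum differed by 1.09-fold, against 1.40-fold for mature markers.

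Microglial markers had sums 1.35-fold apart, lowest in library 7 and highest in library 3. C1qb and C1qa, subunits of complement C1q, lay at 33.5 to 55.7 CPM (median 41.6) and 25.5 to 38.3 CPM (median 31.6), and Ctss, a lysosomal protease, at 29.1 to 46.8 CPM (median 35.7); library 3 was highest for each. These 3 of 14 were variable, with CVs of 17.01%, 14.2% and 17.1% (adjusted p = 5.59e-05, 0.0150 and 9.02e-05). The call was lost for C1qb without library 3 (adjusted p 0.388) and for C1qa without library 3 (adjusted p 0.176), 4 (0.0822) or 7 (0.160), which left 1 of 14 variable without library 3. Endothelial markers included Itm2a and Ly6c1 at 25.7 and 23.5 CPM per kb, and 1 of 13 was variable: Vwf, von Willebrand factor of larger vessels, at 6.92 to 18.2 CPM (median 12.96), highest in library 4 and lowest in library 7 (CV 27.2%, adjusted p = 2.09e-06). Tanycytes were represented by Gpr50 and Col23a1 at 10.5 and 9.14 CPM per kb, and by Rax, the factor that specifies them, at 0.470. Crym, a thyroid hormone-binding protein shared by tanycytes and cortex, lay at 3.45 to 11.1 CPM (median 4.29) with libraries 4 and 6 high (CV 50.5%, adjusted p = 1.82e-10). Vim, the filament of tanycytes and vessels, lay at 45.4 to 69.3 CPM (median 57.6), highest in library 4 (CV 13.3%, adjusted p = 0.00396), a call lost without library 4 (adjusted p 0.161) or 7 (0.193).

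**Figure D3:**
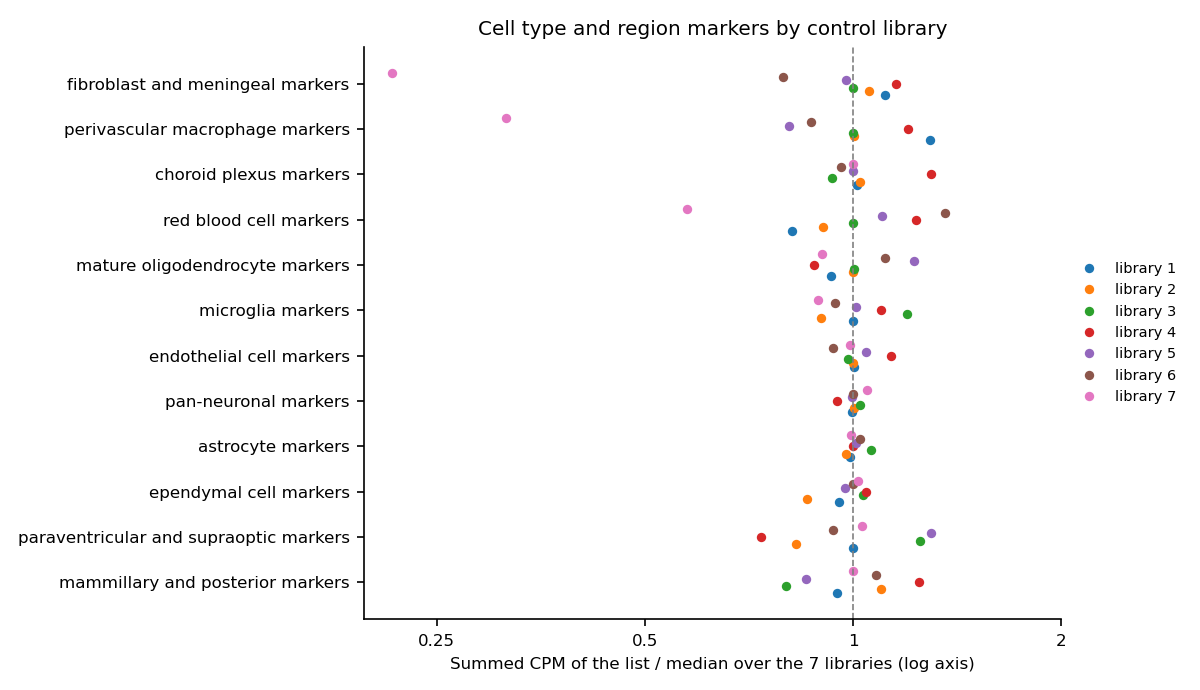
Summed CPM of 12 marker lists in each control library, divided by the median of the 7 libraries, on a log axis; points are libraries, coloured by number, and the dashed line is the median. Library 7 lies far to the left for fibroblast and meningeal, perivascular macrophage and red blood cell markers, while neuronal, astrocyte and ependymal points lie near 1.

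Markers of the meninges, the membranes around the brain, were low in library 7. The 12 fibroblast and meningeal markers summed to 404 CPM in library 7 and to 1482 to 2162 CPM in the others. The highest sum was 5.36 times the lowest, and 1.46 times without library 7. Ptgds made up 86.7% of the sum, and the other 11 markers summed to 115 CPM in library 7 against 198 to 278 CPM, or 2.41-fold between the extremes. Ptgds lay at 288 CPM in library 7 against 1285 to 1898 CPM elsewhere. Ogn and Fmod, small proteoglycans of fibrous tissue, lay at 2.40 and 4.06 CPM in library 7 against 16.6 to 32.3 and 27.2 to 49.9 CPM. Slc6a13 and Slc13a4, transporters of leptomeningeal cells, lay at 1.77 and 1.94 CPM against 11.6 to 19.9 and 20.2 to 33.5 CPM. Slc47a1, a transporter with the same pattern, lay at 0.458 CPM against 7.43 to 14.4 CPM; it was not tested because the filter asks for 0.572 CPM in each library. Of 10 members tested 9 were variable, with adjusted p down to 1.12e-106 for Ptgds, and without library 7 there were 7, of which 6 were among the 9; Col1a1, Col3a1 and Lum, 2 collagens and a proteoglycan, were no longer called, and Slc47a1 entered the test and was called. Without library 7 the CV went from 37.8% to 12.8% for Ptgds, from 45.2% to 21.4% for Ogn, from 44.03% to 19.7% for Fmod, from 43.3% to 18.9% for Slc6a13 and from 44.2% to 16.98% for Slc13a4. All 5 stayed called (adjusted p without library 7 between 1.41e-07 and 0.00578), so a smaller difference remained among the other 6 libraries, where library 6 was lowest for each of the 5.

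Genes outside that list moved in the same direction in library 7. Prg4, lubricin, lay at 1.09 CPM there against 6.33 to 18.5 CPM, Aldh1a2, which makes retinoic acid, at 2.002 against 12.1 to 20.8, and Igfbp2, which binds insulin-like growth factors, at 3.55 against 14.7 to 26.2 CPM. Igfbp6, Mgp, Cdh1, Slc26a7, Slc6a12, Adamtsl3 and Eps8l1 were likewise lowest in library 7. Without library 7 the CVs changed from 42.4% to 18.4% for Aldh1a2, 41.8% to 21.5% for Igfbp2, 51.4% to 32.7% for Cdh1 and 47.99% to 30.3% for Slc26a7, all still called. Also still called were Prg4 (55.8% to 37.5%), Mgp (41.6% to 28.3%), Adamtsl3 (44.2% to 30.1%) and Eps8l1 (42.6% to 29.9%). Igfbp6 and Slc6a12 were no longer called (CV 42.6% to 16.5%, adjusted p = 0.452; CV 42.4% to 20.8%, adjusted p = 0.167). Perivascular macrophage markers summed to 3.83 CPM in library 7 and up to 15.7 CPM in library 1; Mrc1, the mannose receptor of these cells, lay at 0.744 CPM against 2.06 to 4.499 CPM (CV 42.2%, adjusted p = 5.11e-06, and 0.196 without library 7). Vtn, vitronectin of pericytes, lay at 43.9 CPM against 68.9 to 98.01 CPM, with a CV of 22.4% (adjusted p = 1.29e-17) that was 11.8% (adjusted p = 0.0302) without library 7. Haemoglobin genes were also lowest there: Hbb-bs lay at 33.2 CPM in library 7, 43.97 to 68.2 CPM in libraries 1 to 5 and 78.9 CPM in library 6 (CV 27.1%, adjusted p = 5.02e-21). Haemoglobin genes have near-identical copies, so the split between them is uncertain. Across the 348 variable genes, library 7 was the library farthest from the median in 134, of which 125 were low there, and 242 of the 348 were still called without it. Neuronal markers summed to 7431 CPM in library 7 and 6733 to 7259 CPM in the others, and astrocyte markers to 5483 against 5393 to 5851 CPM. The part of the dissection or of cell numbers in the low values of library 7 was not tested.

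Anterior pituitary hormones had the reverse pattern in library 7. Prl, prolactin, a hormone of anterior pituitary lactotrophs, lay at 22.99 CPM in library 7 and at 0.0536 to 0.443 CPM in the others. Gh, growth hormone, of somatotrophs, lay at 10.6 CPM in library 7, at 0.115 CPM in library 1 and at 0 in the other 5. Neither entered the test, since both fell under the filter in at least 1 library, so the difference is given as values without a test. Lhb, a gonadotrophin subunit, had no count in any library, although it overlaps another gene on the opposite strand. Cga, the alpha subunit shared by the glycoprotein hormones and made by the pars tuberalis of the stalk, lay at 3.08 to 16.1 CPM (median 10.1). It was high in libraries 2 and 4, low in libraries 3 and 6, and near its median in library 7 (CV 44.7%, adjusted p = 3.42e-19); a gene on the opposite strand overlaps it. Greb1, an estrogen-regulated gene, lay at 2.61 to 9.03 CPM (median 5.38) with the same high and low libraries. Tshb, the beta subunit of thyrotropin and a pars tuberalis product, was even at 0.733 CPM per kb with a CV estimate of 0. The 14 anterior and intermediate pituitary markers summed to 132 CPM in library 7 and 75.7 to 99.3 CPM in the others. Without Prl and Gh the other 12 summed to 98.7 CPM in library 7 and 75.6 to 99.1 CPM in the others, so those 2 genes carried the excess, and the part of attached pituitary tissue in these values was not tested.

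Library 4 was the farthest from the median in 86 of the 348 variable genes, with 41 high and 45 low, and 248 of the 348 were still called without it. Ttr, transthyretin of the choroid plexus, lay at 28.7 CPM in library 4 and at 1.03 to 9.09 CPM in the others, with a CV of 100.9% (adjusted p = 6.95e-73) and 56.6% without library 4 (adjusted p = 9.22e-22). Without Ttr the other 11 choroid plexus markers summed to 86.4 CPM in library 4 and to 78.7 to 87.6 CPM in the others. Kl, klotho, lay at 9.51 to 15 CPM (median 12.4), and Clic6, a chloride channel protein, at 18.2 to 23.96 CPM (median 21.4). Of the 8 members tested, Ttr included, Ttr was the 1 variable gene. Slc17a7 at 15.2 CPM, Neurod2, a factor of cortical excitatory neurons, at 3.05 CPM and Rprm, a cortical p53 target, at 28.9 CPM were also highest in library 4 (adjusted p = 2.71e-18, 3.70e-05 and 0.00156). Library 6 was second for Slc17a7 and Neurod2, but Tbr1, another cortical factor, at 1.93 to 5.20 CPM (median 3.32) was lowest in library 4 (adjusted p = 0.00359). Rprm lost its call without library 4, where its CV dropped from 20.7% to 5.96% (adjusted p = 1.0), and Tbr1 did so without library 4 (adjusted p 0.0944) or 5 (0.0534). Of the 11 cortical markers tested, 4 were variable with all libraries and 2 without library 4. The 12 listed cortical markers summed to 796 CPM in library 4, 815 CPM in library 6 and 717 to 750 CPM in the others. Slc17a7 and Neurod6, a marker of the same cortical neurons, ran in opposite directions (r = -0.872, exact permutation p adjusted over 12 pairs = 0.0314; rho = -0.75, adjusted exact permutation p = 0.151; r = -0.778 without the 2 farthest libraries), with Neurod6 at 1.16 to 2.52 CPM (median 1.51).

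Paraventricular and supraoptic markers, which include Avp and Oxt, summed to 495 CPM in library 4, 841 CPM in library 3 and 872 CPM in library 5. Mammillary and posterior markers summed to 192 CPM in library 4, 124 CPM in library 3 and 132 CPM in library 5. In libraries 1, 2, 6 and 7 they summed to 147, 170, 167 and 155 CPM. Hdc and Cck, both members of this list and highest in library 4, held 89.8 and 24.4 CPM of its sum there. The list was not summed without them. Without Avp and Oxt the other 7 paraventricular markers summed to 389 CPM in library 4 and 367 to 468 CPM in the others, so the low sum of library 4 rests on those 2 genes. Foxa1 and Lmx1a, factors of the neighbouring midbrain floor, lay at 1.89 to 5.57 CPM (median 4.92) and 2.16 to 5.48 CPM (median 5.03), both lowest in library 3. Their CVs were 27.6% and 26.01% (adjusted p = 0.00407 and 0.0254). Without library 3 the CVs dropped to 10.9% and 13.96% and the calls were lost; that of Lmx1a was also lost without library 2 (adjusted p 0.0603) or 5 (0.0765). Nr4a2, a factor of midbrain dopamine neurons that is also induced by activity, lay at 6.43 to 19.8 CPM (median 12.4) with library 3 lowest (CV 32.6%, adjusted p = 1.14e-10). Onecut3, a factor of hypothalamic neurons, lay at 3.43 to 9.35 CPM (median 6.85), high in libraries 3 and 5, where Avp and Oxt were high, and lowest in library 4 (CV 29.6%, adjusted p = 1.04e-04; without library 4 adjusted p = 0.208). Factors of the anterior nuclei that were steady included Sim1, which specifies paraventricular neurons, at 11.8 to 15.1 CPM (median 13.8) with a CV of 5.23% (adjusted p = 1.0). Of 41 transcription factors tested 7 were variable, but 2 without library 3 and 4 without library 4; of 11 posterior markers 5 were variable, but 2 without library 3.

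Among the most variable genes were 4 that present antigen or mark myeloid cells. Cd74, H2-Ab1 and H2-Aa, which present antigen on MHC class II, lay at 3.15 to 23.5 CPM (median 12.2), 1.94 to 11.1 CPM (median 5.54) and 1.66 to 9.43 CPM (median 4.88), and Lyz2, the lysozyme of myeloid cells, at 3.37 to 18.9 CPM (median 9.32). All 4 were highest in libraries 3 and 4 and lowest in library 7, with CVs between 47.1% and 54.7% (adjusted p = 2.16e-36, 2.46e-13, 3.86e-12 and 3.81e-19). They stayed called without library 7, with CVs between 35.3% and 42.3%. H2-K1, a class I gene, lay at 20.3 to 47.2 CPM (median 24.9), also highest in library 4 (CV 35.6%, adjusted p = 3.55e-21), and H2-Q4 at 3.43 to 9.27 CPM (median 4.35), a call (adjusted p = 3.75e-05) lost without library 4 (adjusted p 0.902), where the CV dropped from 40.7% to 20.2%. The class I genes belong to a family of near-identical copies, so their counts are uncertain. Most blood cell markers other than those of red cells were near 0, with a list median of 0.109 CPM per kb. Of the 10 listed, 1 reached 1 CPM, and it was variable. That call was lost without library 1, 2, 3 or 6.

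Further genes were named for their spread alone. Rn7sk, a small nuclear RNA that holds back transcription elongation, lay at 6.16 to 38.4 CPM (median 12.1) with libraries 1 and 6 high (CV 76.6%, adjusted p = 5.77e-69). The share of ribosomal RNA counts was also highest in libraries 1 (4.35%) and 6 (4.16%) and lowest in library 4 (3.02%), as was Rn7sk, and Grin2b and Zbtb16 were highest in libraries 1 and 6 too; the part of the ribosomal RNA share in these genes was not tested. Xlr3b, an X-linked imprinted gene with near-identical copies, lay at 1.38 to 16.4 CPM (median 6.35), lowest in library 1 and highest in library 4 (CV 71.1%, adjusted p = 1.41e-32). Library 5 was highest for 8 neighbouring genes on chromosome 18. These were the variable genes within 1000 kb of Arap3 that were farthest from their median, on the high side, in library 5. They span 397 kb, and the cause was not tested. Genes there that were not called, or were farthest in another library, were left out of the 8. Lower CVs without library 5 follow in part from choosing genes by that library. Arap3, a GTPase-activating protein of vessels, lay at 23.3 CPM there and at 8.59 to 11.4 CPM in the others, and Pcdhgc5 and Pcdhgc4, protocadherins of synapses, at 41.8 and 56.5 CPM against 19.1 to 22.6 and 24.8 to 35.3 CPM. Their CVs of 44.2%, 33.9% and 31.3% dropped to 6.84%, 2.53% and 11.3% without library 5, and the calls were lost (adjusted p = 1.0, 1.0 and 0.548). Pcdhgc5 and Pcdhgc4 were named by a ranking without library 7 made after the data were seen. The other 5 were also chosen after their values were seen. Rell2 lay at 43.9 CPM against 22.4 to 28.5 CPM, Diaph1 at 85.7 against 52.5 to 58.3 and Hdac3 at 164 against 103 to 115. Fchsd1 lay at 23.3 against 13.5 to 15.96 and Pcdh1 at 127 against 92.2 to 112 CPM. Without library 5 none of these 5 was called, and their CVs went from 23.5% to 6.82% for Rell2, 19.2% to 2.57% for Diaph1, 17.98% to 3.36% for Hdac3, 18.9% to 0% for Fchsd1 and 11.4% to 6.80% for Pcdh1. The call of Fchsd1 was also lost without library 3 (adjusted p 0.113) and that of Pcdh1 without library 2 (adjusted p 0.182). Protocadherin genes of this cluster share exons, and these 2 overlap a gene on the opposite strand, so their counts are uncertain, as are those of Rell2 and Fchsd1, whose spans overlap. Car12, a carbonic anhydrase, at 3.33 to 9.21 CPM (median 4.58) and Mid1, a ubiquitin ligase, at 3.68 to 10.9 CPM (median 6.96) were variable as well (adjusted p = 1.96e-05 and 2.56e-08); the call of Car12 was lost without library 4 (adjusted p 0.0963), and Mid1 spans genes on the opposite strand.

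**Figure D4:**
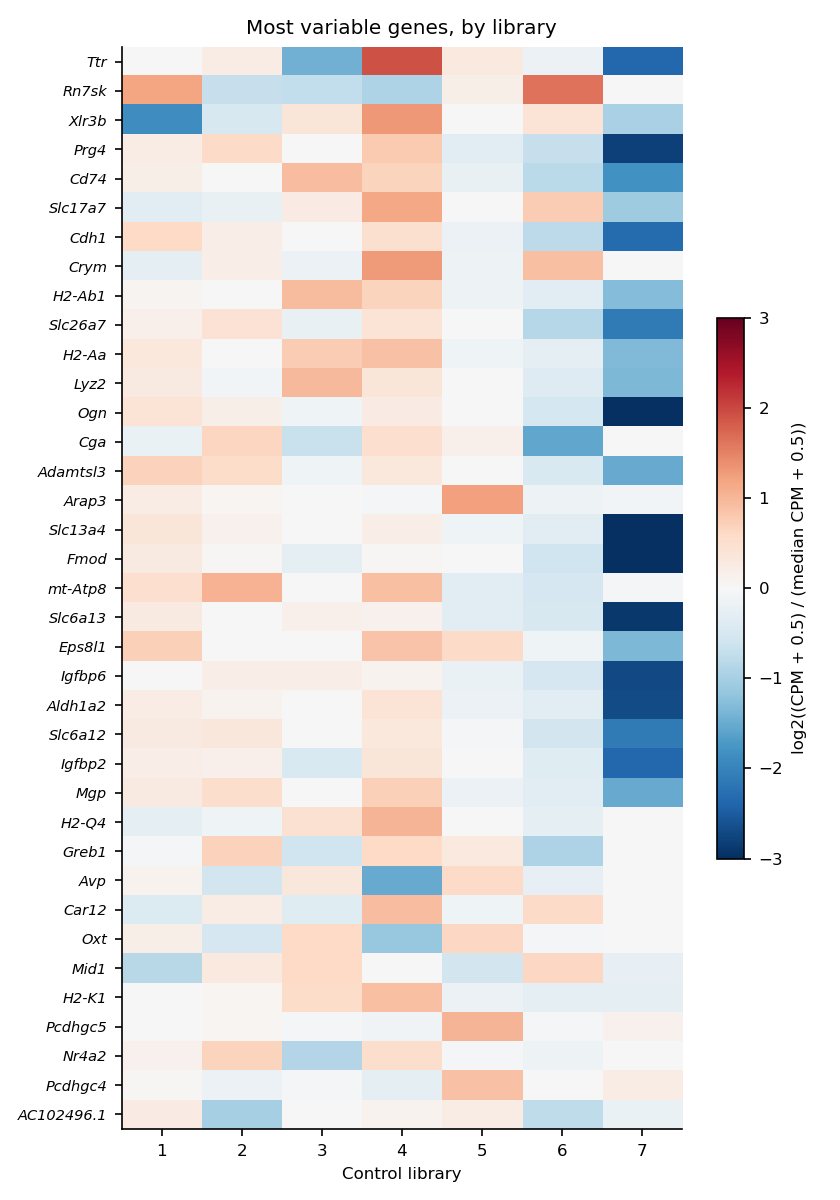
Level in each control library of 37 variable genes, named by the ranking by CV with all libraries or by the ranking without library 7. Values are log2 of the CPM (plus 0.5) over the median of the 7 libraries (plus 0.5), with colours limited at 3 and -3. Rows are genes and columns libraries. The column of library 7 is dark blue for meningeal genes such as Ogn, Fmod and Slc13a4, library 4 is red for Ttr, Crym and H2-Q4, and library 5 is red for Arap3, Pcdhgc5 and Pcdhgc4.

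Genes with the lowest ordinary CV were named for that low spread alone. Among genes with a mean of at least 50 CPM, the lowest ordinary CVs, counting noise included, were 0.970% for Fuca2, a lysosomal fucosidase, and 0.970% for Aars, which charges tRNA with alanine. Fuca2 lay at 64.8 to 66.7 CPM (median 65.4) and Aars at 196 to 202 CPM (median 201). Ddhd1, Dync1li1, Trim35, Dusp8, Tmem106c, Cript, Dlgap4 and Eef1d followed, with ordinary CVs up to 1.21%. For these 10 genes the spread was no wider than counting reads gives, so the CV estimate beyond it was 0. Picking the lowest values of many genes favours those that came out low by chance. Their order therefore does not show which genes are truly the steadiest.

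**Figure D5:**
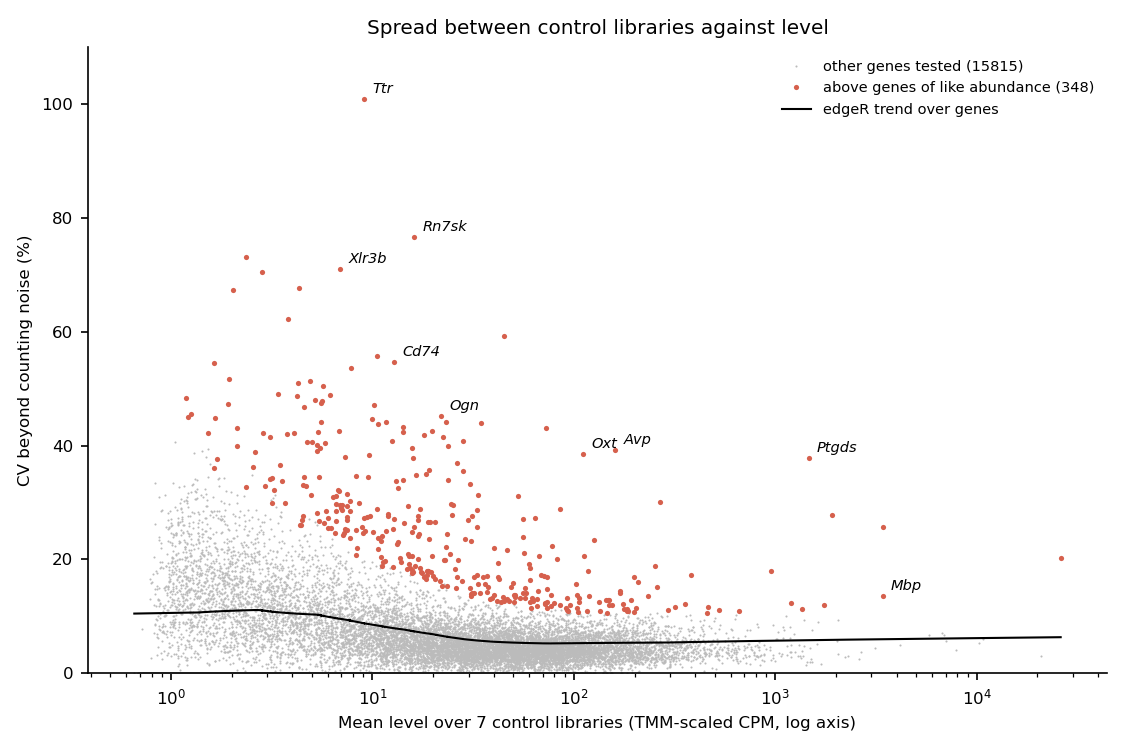
CV beyond counting noise of the genes tested against their mean level in CPM on a log axis; grey points are genes not called, red points the 348 variable genes, and the line is the edgeR trend over all genes. Most genes lie under 20%, with 608 above it, and Ttr, Rn7sk and Xlr3b are the highest labelled points.

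Of 12 gene pairs chosen from textbook circuits and cell types, 5 correlated across the 7 libraries at an adjusted exact permutation p under 0.05 by Pearson r and 3 by Spearman rho. Among the 3 that passed both were Avp with Oxt and Pmch with Hcrt. Pairs that did not pass were Agrp with Npy, Pomc with Cartpt, Vip with Nms, Dbp with Per1, Gfap with Aqp4, Hbb-bs with Alas2 and Ttr with Kl. Pomc and Cartpt, made in the same arcuate neurons, had r = 0.489 (adjusted exact permutation p = 0.315). The 7 libraries differ in composition as described, and the part of composition in these correlations was not tested. When 1 library was left out, 2 to 4 pairs passed: 3 without library 2, 4 or 6 and 2 without library 5.

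The genes that varied most in the controls were also looked up in the libraries of the risperidone groups. CVs were taken within each group with its own scaling, and marker sums on a scale common to the whole series. Of the 100 control genes with the largest CV among 11740 genes present in all groups, 67 were among the top 100 of the 6 pair-fed libraries and 20 among the top 100 of the 7 ad libitum risperidone libraries. The ad libitum risperidone group held a library with cortical markers at 4083 CPM, against a group median of 743 CPM, and its part in that count was not tested. The median CV of those 100 genes was 32.1% in controls, 37.1% in pair-fed and 36.5% in ad libitum risperidone libraries, against 4.19%, 4.90% and 9.76% over all 11740 genes. The control median is high by choice, since the 100 genes were picked by their control CV. Ptgds had CVs of 37.8%, 49.02% and 51.1% in the 3 groups, and Avp of 39.2%, 68.02% and 81.8%. Meningeal marker sums spanned 394 to 2109 CPM in controls, 459 to 2321 CPM in pair-fed and 386 to 1799 CPM in ad libitum risperidone libraries on that common scale. Arap3, in contrast, had CVs of 9.86% and 7.34% in the risperidone groups. These groups differ from the controls in treatment as well, and no test was made between them.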

How the data were processed

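Hypothalamus RNA of 20 mouse libraries was measured, and the 7 control libraries are analysed here. The deposited table holds raw read counts per gene made by the authors. STAR, featureCounts and DESeq2 and the builds GRCm38 and mm10 are named, per the submitters' processing notes; no version, strand setting or rule for multiply matching reads is given in the sources used here. Reads that match several genes may therefore be lost or shared.

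Counts were scaled with TMM factors over the control libraries in edgeR 4.0.16 (R 4.3.3) to CPM. Total counts per library are given in the report, and counting error limits the precision of low genes. Of 55471 genes, 241 (0.00351% of counts) had no match in the GENCODE annotation and no length. filterByExpr (minimum count 10, here 0.572 CPM in each of the 7 libraries) kept the genes tested. The residual deviance of an intercept model on 6 degrees of freedom was compared with chi-square at dispersion 0 (counting noise) and at edgeR's trended dispersion (genes of like abundance), with Benjamini-Hochberg adjustment over all genes tested at 0.05. Every adjusted p of a single gene is of the second kind unless said. The CV beyond counting noise is a moment estimate. Pair correlations used log2 CPM (prior count 2) with exact permutation over 5040 orders, two-sided, on SciPy 1.17.1. The test was checked on simulated counts. Alternatives were other scalings, filters, dispersions (DESeq2 1.42.0 among them) and leaving out each library.

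Genes were named by rule. By level, these were the 20 protein-coding genes highest per kb. By spread, these were the 25 genes with the largest CV among variable genes of at least 5 CPM and the 10 steadiest of at least 50 CPM, predicted genes and pseudogenes left out. From each of 47 lists came up to 4 members highest per kb, 4 without a count and 4 most variable, and both genes of each pair were added. These genes were chosen after their values were seen: Crh, Dbh, Ddc, Esr1, Gal, Gh, Ghrh, Ghsr, Glp1r, Gnrh1, Htr2a, Htr2c, Insr, Lepr, Pcsk1, Pcsk2, Rax, Sim1, Rell2, Diaph1, Fchsd1, Hdac3, Pcdh1, Col1a1, Col3a1, Lum, Slc47a1, Slc6a2, Tac2, Th, Tph2, Tshb. Members, lists and the control group were chosen with earlier results of these data known. Results of a few members of the lists and pairs are not reported here, although the counts include them.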

Additional observations from a re-analysis of the deposited data

Results flagged for a closer look

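A library was singled out for a closer look where its gap to the nearest other library, divided by the range of the 7, exceeded the 95% critical value of Dixon's ratio for 7 samples. Chance passes about 1 in 20 groups. Of 47 marker list sums 3 passed, near that share, and of 237 genes examined 30. Many of these genes were named for their spread or after their values were seen, so their count cannot be compared with chance.

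Meningeal markers summed to 403.5 CPM in library 7, against 1482 to 2162 CPM in the others. Among its genes Ptgds lay at 288 CPM, Slc13a4 at 1.94 CPM and Col1a1 at 5.38 CPM (others 10.1 to 13.7). Anterior and intermediate pituitary markers summed to 132 CPM in library 7, against 75.7 to 99.3 CPM (98.7 against 75.6 to 99.1 CPM without Prl and Gh), with Prl at 23.0 CPM and Gh at 10.6 CPM. Genes of neurons and astrocytes that stood out high in library 7 were Sparcl1, a matrix protein of astrocytes, at 2436 CPM (others 2228 to 2296), the AMPA receptor subunit Gria2 at 380.2 CPM (325 to 347), the glycine receptor subunit Glrb at 201 CPM (177 to 186) and the convertase Pcsk1 at 108 CPM (86.7 to 95.4). These 4 differences were small beside those of the meningeal and pituitary genes.

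Choroid plexus markers summed to 115 CPM in library 4, against 82.7 to 90.7 CPM, and Ttr alone lay at 28.7 CPM (others 1.03 to 9.09). Cck at 24.4 CPM, Rprm at 28.9 CPM and Fos at 29.5 CPM were also high in library 4. In library 5 Arap3 at 23.3 CPM, Pcdhgc4 at 56.5 CPM, Pcdhgc5 at 41.8 CPM, Diaph1 at 85.7 CPM, Hdac3 at 164 CPM, Rell2 at 43.9 CPM and Fchsd1 at 23.3 CPM were high; all 7 lie within 1 stretch of chromosome 18. In library 3 Aldoc, the astrocyte glycolytic enzyme, was high at 1187 CPM (others 981 to 1056).

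Mitochondrial transcripts were low in library 6, with mt-Nd2 at 4939 CPM, mt-Nd5 at 6204 CPM and mt-Nd6 at 919 CPM. In the same library Grik5, a kainate receptor subunit, was high at 196 CPM (others 175 to 178), and Pnoc, the nociceptin precursor, was low at 19.2 CPM (others 22.3 to 24.4). Uchl1 was low in library 1 at 459 CPM (others 513 to 544). In library 2 Cpe was high at 1464 CPM (others 1387 to 1418), and Dbh, the enzyme of noradrenaline synthesis, lay at 0.443 CPM (others 0 to 0.172). Kdm5d, a Y-linked gene, lay at 0.0541 CPM in library 3 and at 0 in the others; Dbh and Kdm5d rest on a few reads each.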

How the results depend on the processing

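The number of genes beyond counting noise lay between 5305 and 6210 over 8 other settings and between 4883 and 5785 with 1 library left out. The number above genes of like abundance lay between 329 and 426 over 11 settings, highest with a common dispersion, and between 276 and 322 with 1 library left out. Genes with a mean of at least 1 CPM numbered 15796 to 16140 over 5 settings and 15827 to 15880 with 1 library left out. The top 100 genes held 14.1% of the counts when mitochondrial and ribosomal RNA genes were left out of the library size, and 21.9% to 22.1% with 1 library left out. The median CV was 6.14% by edgeR's tagwise dispersion, which shrinks towards the trend, and 3.93% to 4.51% with 1 library left out. Of the 12 pairs, 5 passed with a prior count of 0.5 and with RLE scaling, and 2 to 4 with 1 library left out. A filter on the mean level, in place of a level in each library, added 95 genes; such genes can pass it through the library where they are high, so their calls support nothing. With the longest transcript as the gene length, 108 of 237 length-scaled levels moved by more than the SD between libraries and 129 did not. Hcrt then lay at 789.9 CPM per kb, Pomc at 51.7 and Agrp at 12.7, and Pmch, Sst, Avp, Oxt and Npy were the same to 3 digits. Counts of list members with each library left out, the ranking of genes by spread without library 7, the top 20 by longest transcript and list sums without named members were alternatives chosen after seeing the data. No paired analysis was possible because all results come from 1 group and no groups were compared. With 7 libraries of about equal depth, spread in genes near the filter is limited by counting noise, so a gene there that was not called may still vary.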
